A study of Arabidopsis thaliana with 24 samples.

Results

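The stretch of Arabidopsis thaliana chromosome 5 around the locus AT5G37140 holds 63 loci in the expression tables, out of 32399 loci in all. Its members are every locus numbered from AT5G37030 to AT5G37500 except AT5G37300. The stretch was proposed with results of these same libraries in view. AT5G37140 and AT5G37320 both passed the test in every comparison between cell types, and AT5G37320 also between the crosses in basal cells. All these comparisons are therefore taken to have led to the choice, and the members' differences below are descriptions without a test. Of the 63 loci, 46 are annotated as protein coding, 15 as pseudogenes and 1 as a non-coding RNA. The remaining locus, AT5G37351, had no entry in the gene table used for names. A filter on low values, an FPKM (a read level scaled to transcript length and to the library's mapped fragments) of at least 1 in at least 3 libraries, was passed by 32 members. That is 50.8% of the members, against 56.2% of all loci.

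RNA was sequenced from hybrid embryos in which the accession Columbia (Col) had been crossed with Landsberg erecta (Ler) in both directions, so the embryos of all groups carry a copy of both genomes. Apical cells and basal cells came from embryos of 2 cells, and embryo proper and suspensor from embryos of 32 cells. Each cell type was taken from a Col mother with a Ler father (called Col below) and from a Ler mother with a Col father (called Ler below), with 3 libraries in each of the 8 groups and 24 in all. The series text speaks of independent biological replicates. mRNA was captured on beads and amplified with a SMART-Seq kit for very low input, without molecular identifiers.

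Summed FPKM was 912475 to 1249916 per library, and depth, which is not stated, came to roughly 13.3 to 32.8 M fragments when estimated from low values. The 10 most abundant loci took 16.1 to 26.3% of summed FPKM in suspensor libraries and 4.32 to 6.73% in the others. In the suspensor their share was 22.3 to 26.3% in Col and 16.1 to 19.7% in Ler libraries, and summed FPKM was higher in Col. The part of this in differences between the crosses of the suspensor was not tested. Summed FPKM of 4 basal lineage markers was 27.8 to 104 in apical cells, 576 to 771 in basal cells, 78.4 to 129 in the embryo proper and 593 to 875 in the suspensor. Summed FPKM of 5 apical lineage markers was 192 to 390 in apical cells, 123 to 183 in basal cells, 4112 to 5758 in the embryo proper and 505 to 2187 in the suspensor, at the later stage mostly from PDF1, an epidermal gene. Among them ZPR3 was at 0 in all apical and basal cell libraries. Summed FPKM of 5 endosperm markers was at most 1.13 in apical cells, 16.1 in basal cells, 3.64 in the embryo proper and 30.5 in the suspensor, with PHE1 at 0 throughout. Summed FPKM of 5 seed coat markers was 10.4 to 17.7 in the embryo proper, mostly from MUM4, and at most 8.12 in any other library. BAN was highest in the suspensor, at up to 7.98. The part of such RNA in the values below was not tested. In bulk libraries of embryo proper and suspensor, fewer expressing cells and less RNA per cell cannot be told apart.

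After the zygote divides, its apical daughter founds most of the embryo and its basal daughter mainly the suspensor, a stalk that feeds and positions the embryo. Neighbouring plant genes are often tandem copies, which arise by local duplication and can keep, share or lose the activity of their ancestor. The stretch holds such copies of several families. They include putative helicases of the P-loop nucleoside triphosphatase superfamily, which unwind RNA or DNA in better studied relatives such as yeast Sen1. Others are RING/U-box proteins, a class that includes many ubiquitin ligases, and plant proteins of unknown function with a DUF577 domain. Between these families lie single genes with general roles in transcription, splicing, ribosome assembly and translation. AT5G37320 is the only member annotated with a DUF674 domain, also of unknown function.

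AT5G37140, a P-loop nucleoside triphosphatase of unstudied function, was highest in the apical cell. Its FPKM in apical cells was 71.3, 77.7 and 79.3 in Col and 66.2, 41.9 and 81.6 in Ler. In basal cells it was 0.09, 3.03 and 4.07 in Col and 0.04, 7.52 and 6.49 in Ler. The sister cells did not overlap, and their means of 69.6 ± 14.7 and 3.54 ± 3.14 (SD, n = 6 libraries, as for all cell type means below) stood 19.7-fold apart. At the later stage the lineages were ordered the other way. FPKM was 7.62, 5.25 and 13.2 in Col embryo proper and 11.2, 4.72 and 0.69 in Ler embryo proper. It was 40.5, 6.89 and 13.6 in Col suspensor and 32.1, 52.7 and 10.4 in Ler suspensor. The suspensor mean of 26.0 ± 18.6 was 3.65-fold the embryo proper mean of 7.12 ± 4.58, but their libraries overlapped, as did those of embryo proper and basal cell. A single suspensor library reached into the range of the apical cell. On the log2(FPKM + 1) scale, the fitted difference was 4.36 (SE 0.58) for apical minus basal cell and -1.68 (SE 0.58) for embryo proper minus suspensor. The latter was -0.88 within Col and -2.48 within Ler libraries.

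AT5G37320, a DUF674 protein of unknown function, shared the high level in the apical cell but not the later pattern. Its apical FPKM was 52.4, 57.3 and 52.3 in Col and 51.7, 48.8 and 56.8 in Ler, a mean of 53.2 ± 3.24. Basal FPKM was 4.87, 2.40 and 8.85 in Col, against 0, 0.95 and 0 in Ler. All 3 Col libraries were thus above all 3 Ler libraries in the basal cell, a difference of 2.22 (SE 0.48) in log2(FPKM + 1), whereas the crosses overlapped in the apical cell. FPKM in the embryo proper was 2.98, 0.87 and 3.94 in Col and 4.49, 3.23 and 4.81 in Ler. In the suspensor it was 0, 0.03 and 0.35 in Col and 0, 0 and 0.03 in Ler. The order of the means was thus apical cell (53.2), embryo proper (3.39 ± 1.42), basal cell (2.85 ± 3.47) and suspensor (0.0683 ± 0.139). Embryo proper and basal cell overlapped, as did basal cell and suspensor, while embryo proper and suspensor did not. The fitted difference was 4.33 (SE 0.34) for apical minus basal cell and 1.96 (SE 0.34) for embryo proper minus suspensor. The suspensor minus basal difference of -1.34 (SE 0.34) was -2.38 within Col and -0.31 within Ler.

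**Figure D1:**
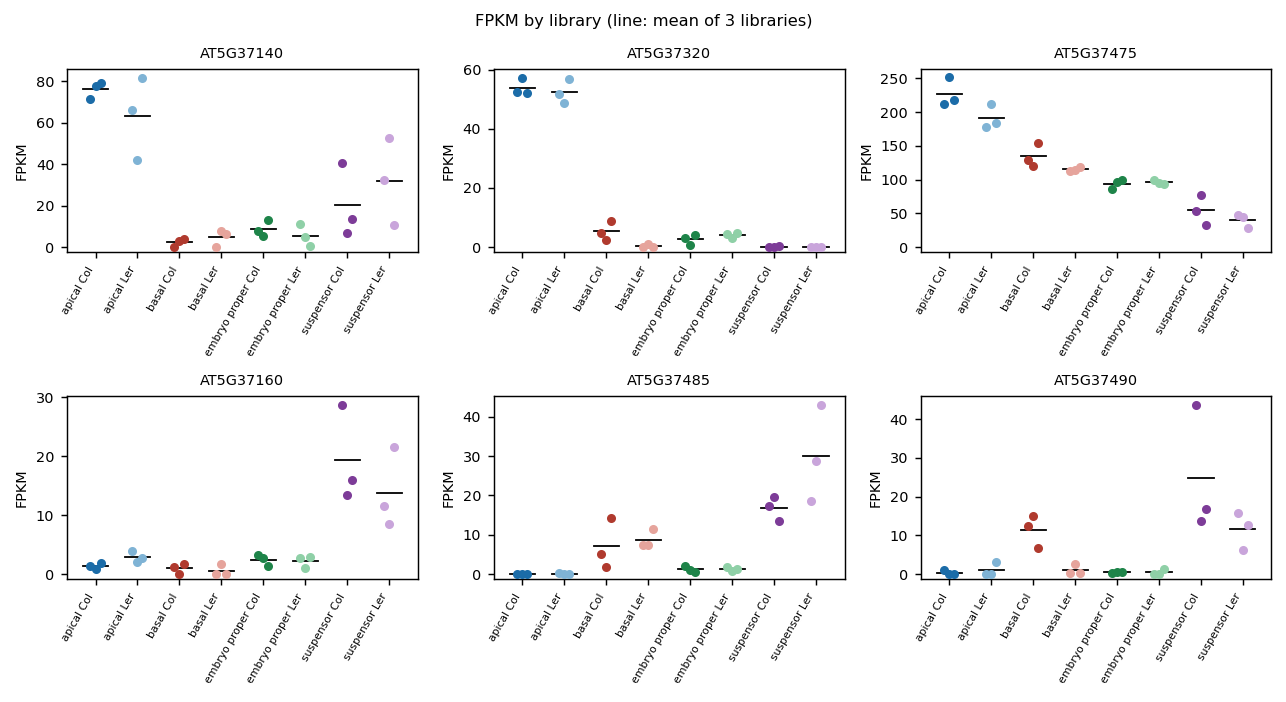
FPKM (vertical axis, linear) of 6 members in the 8 groups of cell type and mother. Points are libraries and lines are means of 3 libraries. AT5G37140, AT5G37320 and AT5G37475 are highest in apical cells, with means of 69.6, 53.2 and 209, and the other 3 are highest in the suspensor, with means of 16.6, 23.4 and 18.1.

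The genes whose levels followed these most closely over the 24 libraries differed between the pair. By Pearson's r of log2(FPKM + 1), given as a description over libraries that share cell types, AT5G37140 was most like CDC48, a chaperone-like ATPase (0.82), the alpha-tubulin TUA1 (0.80), the GATA factor BME3 (0.79), AT3G22810 (0.79) and LACS9, a long chain acyl-CoA synthetase (0.79). BME3 had an FPKM of 52.7 ± 13.1 in apical cells, 3.29 ± 2.87 in basal cells, 8.63 ± 3.76 in the embryo proper and 37.1 ± 27.8 in the suspensor, the same order of cell types as AT5G37140. AT5G37320 was most like AT1G49110 (0.96), the actin ACT11 (0.93), AT5G67000 (0.93), AT5G48350 (0.93) and AT1G55800 (0.93). ACT11 had an FPKM of 168 ± 17.2 in apical cells, 49.8 ± 27.1 in basal cells, 41.9 ± 5.64 in the embryo proper and 18.3 ± 5.63 in the suspensor. Between AT5G37140 and AT5G37320 themselves r was 0.50, which ranked 638 among the genes like the former and 2972 among those like the latter.

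AT5G37140 lies among 3 other members of its family, AT5G37030, AT5G37150 and AT5G37160, and each of the 4 had its own order of cell types. AT5G37030 was low, with an apical FPKM of 3.44, 5.29 and 4.31 in Col and 1.14, 9.40 and 2.65 in Ler, and at 0 in 3 Col basal cell libraries. In Ler basal cells it was 4.04, 0.02 and 0.04, and elsewhere it did not exceed 0.87. Apical cells thus held its highest values, with 1 basal cell library inside their range. The apical minus basal difference of 1.86 (SE 0.38) was 1.09 without the 4 libraries whose labels allow another library kit. AT5G37160 was instead a suspensor gene in these libraries, with an FPKM of 28.7, 13.4 and 15.9 in Col and 11.6, 8.44 and 21.5 in Ler suspensor. Its highest value in any other library was 3.87, so the suspensor did not overlap with the rest. The means were 2.13 ± 1.08 in apical cells, 0.768 ± 0.862 in basal cells, 2.32 ± 0.922 in the embryo proper and 16.6 ± 7.39 in the suspensor. AT5G37150 was above 0 in all libraries, and its cell types overlapped, with group means from 3.74 in Col embryo proper to 11.8 in Ler suspensor.

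These copies are similar enough for reads to be shared, unevenly between them. In RefSeq transcripts of the TAIR10.1 assembly, matched by locus, AT5G37140 was 82.0% identical to AT5G37150 over 2071 aligned bases. Of the stretches of 50 bases in AT5G37140, 2.32% occurred without mismatch in another locus, against 35.0% in AT5G37150 and 0% in AT5G37160 and AT5G37320. AT5G37150 was 97.3% identical to AT5G52090, a copy outside the stretch, over 2032 bases. AT5G52090 had an FPKM of at most 0.72 in any library. It was 82.5% identical to AT5G37140 over 2055 bases, and its low values followed those of AT5G37140 (r = 0.78 over 24 libraries). Its means were 0.38 ± 0.246 in apical cells, 0.007 ± 0.01 in basal cells, 0.068 ± 0.06 in the embryo proper and 0.188 ± 0.177 in the suspensor. The part of shared reads in this was not tested. Another copy, AT5G37165, is not listed in the expression tables. Pairwise r of log2(FPKM + 1) among the 4 members of the family ran from -0.33 to 0.45. The closest relative of AT5G37320 outside the stretch, AT5G01150, was 70.8% identical over 301 bases. AT5G01150 was also highest in the apical cell and lowest in the suspensor, with an FPKM of 58.0 ± 24.7 in apical cells, 7.37 ± 6.04 in basal cells, 1.37 ± 0.485 in the embryo proper and 0.085 ± 0.194 in the suspensor (r = 0.83 over 24 libraries).

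The RING/U-box family has 6 members in the stretch, of which 3 passed the filter. AT5G37250 was the highest of them. Its FPKM was 38.5, 44.0 and 23.3 in Col apical cells and 0, 49.3 and 2.93 in Ler apical cells. In basal cells it was 5.78, 5.57 and 0 in Col and 0 in all 3 Ler libraries. Across embryo proper libraries it ran from 0 to 4.78, and in the suspensor from 0 to 15.2. Of the 6 apical libraries 4 stood above all those of other cell types and the other two did not, which leaves an apical mean of 26.3 ± 21.1. The means elsewhere were 1.89 ± 2.93 in basal cells, 1.80 ± 1.78 in the embryo proper and 7.49 ± 7.31 in the suspensor. AT5G37230 and AT5G37270 followed it at lower levels, up to 5.80 and 3.93. AT5G37250 was the highest of the 3 in all 17 libraries in which it was above 0, and the 3 were at 0 together in 6 libraries.

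The 3 RING/U-box transcripts are 95.0 to 96.2% identical in pairs. Stretches of 50 bases found without mismatch in another locus made up 13.6% of AT5G37230, 16.6% of AT5G37250 and 20.6% of AT5G37270. Pairwise r of log2(FPKM + 1) was 0.91 to 0.95. How RSEM, the tool the submitters name for estimating abundance, divided shared reads among them was not tested, so the low values of AT5G37230 and AT5G37270 are uncertain. AT5G37280 reached an FPKM of 1.76 in 1 library and did not pass the filter. AT5G37200 and AT5G37220 were listed at 0 in every library.

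**Figure D2:**
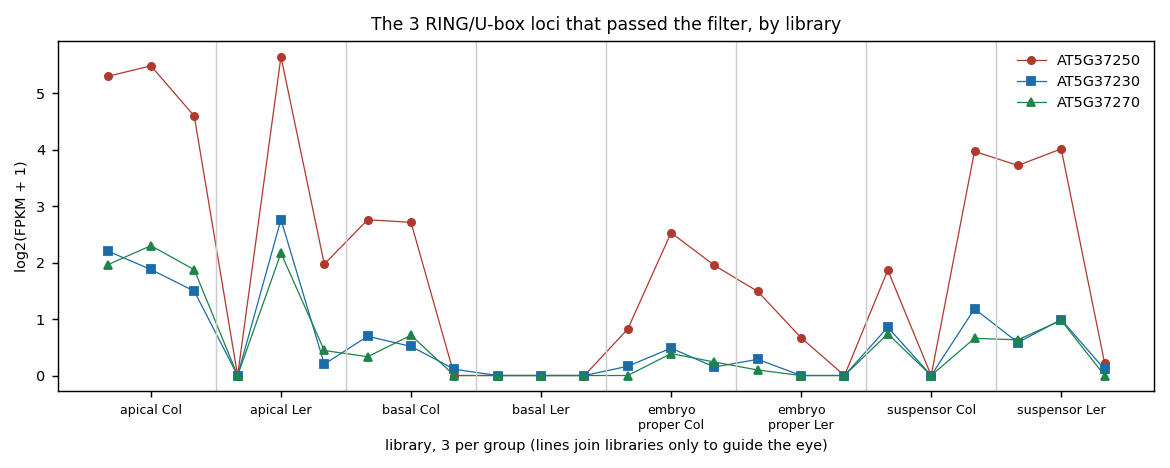
Level in log2(FPKM + 1) (vertical axis) of AT5G37250, AT5G37230 and AT5G37270 in each of 24 libraries, grouped by cell type and mother. Lines join libraries only to guide the eye. The 3 loci go up and down together, AT5G37250 is the highest wherever it is above 0, and the highest FPKM values, 23.3 to 49.3, are in 4 apical libraries.

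The most abundant member was AT5G37475, which encodes a subunit of the translation initiation factor eIF3. Its FPKM was 212, 252 and 218 in Col and 178, 212 and 184 in Ler apical cells. It was 129, 121 and 154 in Col and 113, 114 and 118 in Ler basal cells. Embryo proper libraries held 86.5, 96.2 and 98.7 in Col and 100.04, 94.3 and 93.6 in Ler, and suspensor libraries 53.2, 77.5 and 32.5 in Col and 47.7, 45.1 and 28.1 in Ler. No pair of cell types overlapped, with means of 209 ± 26.7 in apical and 125 ± 15.5 in basal cells, and of 94.9 ± 4.78 in the embryo proper and 47.3 ± 17.6 in the suspensor. The apical mean was 1.68-fold the basal mean and 4.42-fold the suspensor mean. Its closest relative elsewhere, AT1G66070, was 80.9% identical over 732 bases and had an FPKM of 62.2 ± 12.9 in apical cells, 57.9 ± 16.5 in basal cells, 43.1 ± 3.94 in the embryo proper and 22.9 ± 19.3 in the suspensor.

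The other members with general cell functions were expressed in all cell types. AT5G37130, annotated as a protein prenylyltransferase superfamily member, had group means between 39.0 in Col suspensor and 72.5 in Col basal cells. ATSRL1 (AT5G37370), a PRP38 family protein related to a yeast splicing factor, ranged from 21.3 in Col suspensor to 76.5 in Col basal cells. AT5G37350, which encodes the kinase Rio1, a ribosome assembly factor in yeast, ranged from 14.9 in Col suspensor to 60.4 in Ler apical cells. All 3 thus had their lowest group mean in the Col suspensor. AT5G37310, an endomembrane protein, had group means of 21.6 to 40.3, and AT5G37380, a DnaJ-domain protein (a class of chaperone partners), of 13.0 to 22.9. SEF (AT5G37055), a zinc finger subunit of the SWR1 complex, which exchanges the histone variant H2A.Z into chromatin, ranged from 27.0 in Ler suspensor to 69.0 in Col basal cells. In all, 11 members had an FPKM of at least 1 in each of the 24 libraries.

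Several members were lowest in the apical lineage. AT5G37485, the non-coding RNA, was at 0 in 3 Col apical libraries and at 0.14, 0 and 0.12 in Ler apical cells. In basal cells its FPKM was 5.05, 1.72 and 14.3 in Col and 7.46, 7.37 and 11.4 in Ler. The embryo proper had 2.01, 1.05 and 0.40 in Col and 1.78, 0.66 and 1.16 in Ler, and the suspensor 17.3, 19.6 and 13.4 in Col and 18.5, 28.7 and 43.1 in Ler. The lineages of the same stage did not overlap at either stage, with fitted differences of -2.90 (SE 0.38) for apical minus basal cell and -3.44 (SE 0.38) for embryo proper minus suspensor. The suspensor mean of 23.4 ± 10.9 was 19.9-fold the embryo proper mean of 1.18 ± 0.624.

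AT5G37490, an ARM repeat protein and the direct neighbour of that RNA in the filtered list, had a like pattern in Col but not in Ler libraries of the first stage. Its FPKM was 12.4, 15.01 and 6.72 in Col basal cells, against 0.17, 2.61 and 0.29 in Ler basal cells and 0 to 3.18 in all apical cells. In the suspensor it was 43.7, 13.6 and 16.7 in Col and 15.8, 6.15 and 12.6 in Ler, while no embryo proper library exceeded 1.33. The suspensor thus stood above the embryo proper in both crosses, with means of 18.1 ± 13.1 and 0.473 ± 0.468. The apical minus basal difference of -1.65 (SE 0.44) was -3.21 within Col and -0.09 within Ler libraries.

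Of the other members, AT5G37070, a DUF538 protein, had its highest group mean in Ler suspensor (62.8) and its lowest in Ler basal cells (14.7). AT5G37480, named in the annotation after a maltase-glucoamylase, ranged from 15.7 in Ler apical cells to 52.1 in Ler basal cells. AT5G37290, another ARM repeat protein, ranged from 10.4 in Ler suspensor to 30.8 in Col basal cells. AT5G37360 ranged from 3.37 in Col apical to 15.2 in Ler basal cells, and AT5G37474, a putative membrane lipoprotein, from 0 to 7.36 in Ler basal cells, where a single library at 20.8 carried the mean. The last 4 of these loci had their highest group mean in basal cells.

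The DUF577 family has 6 members, of which 4 passed the filter, all at low levels. Group means ran from 1.56 to 5.83 for AT5G37400, from 0.13 to 3.38 for AT5G37410, from 0 to 2.07 for AT5G37420 and from 0 to 1.34 for AT5G37460. AT5G37420 and AT5G37460 were at 0 in all 6 suspensor libraries. AT5G37470 reached 4.01 in 1 apical library without passing the filter, and AT5G37430 was listed at 0 throughout. In TAIR10.1, AT5G37420 overlaps AGL105 (AT5G37415) by 159 bases on the opposite strand, so their reads cannot be told apart without strand. The remaining loci that passed were the pseudogene AT5G37175, with group means of 0 to 1.06, and the leucine-rich repeat kinase AT5G37450, with group means of 0 to 0.547.

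AT5G37440, a DnaJ-domain protein, had its highest cell type mean in the apical cell, but libraries of basal cell and suspensor overlapped with it. Its FPKM was 11.4, 13.4 and 20.4 in Col and 8.35, 5.56 and 14.1 in Ler apical cells. Embryo proper values were at most 2.01, so the apical lineage did not overlap between stages, with means of 12.2 ± 5.14 and 0.807 ± 0.689. In basal cells it was 12.4, 11.3 and 13.5 in Col and 0.88, 2.61 and 3.09 in Ler, and the crosses did not overlap. Suspensor values were 0, 0 and 2.97 in Col and 1.47, 20.5 and 0 in Ler, where 1 library stood alone. The suspensor minus basal difference in log2(FPKM + 1) was -3.08 within Col and 0.31 within Ler libraries. AT5G37440 was 87.6% identical over 1045 bases to AT5G37750, outside the stretch, and the 2 shared 6.75% of the stretches of 50 bases of AT5G37440.

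RVE2 (AT5G37260), a MYB-like transcription factor of the clock-related REVEILLE family, differed most between crosses. In basal cells its FPKM was 17.8, 21.3 and 27.8 in Col and 0 in each of the 3 Ler libraries. In apical cells it was 0.92, 0 and 5.11 in Col and 0, 1.48 and 0 in Ler. In the embryo proper it was 12.1, 3.40 and 9.06 in Col and 17.8, 14.7 and 6.11 in Ler, and the crosses overlapped. Suspensor libraries were either high or near 0, at 17.1, 0 and 0.05 in Col and 11.1, 0 and 15.2 in Ler. The basal cell was thus the place where its crosses did not overlap, with a fitted Col minus Ler difference of 4.52 (SE 1.00).

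AT5G37340, a ZPR1 zinc-finger protein, differed between the crosses in the suspensor. Its FPKM there was 6.06, 13.6 and 11.3 in Col and 79.9, 83.5 and 23.6 in Ler, so the crosses did not overlap. In the other cell types it was 6.56 to 32.5. The closest relative, AT5G22480, 91.0% identical over 1396 bases, had an FPKM of 15.4 ± 6.87 in the suspensor and 41.6 ± 4.66 to 61.8 ± 4.23 in the other cell types.

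CIP4 (AT5G37190) encodes a COP1-interacting protein; COP1 is a repressor of light responses. Its FPKM was 8.42, 5.48 and 5.81 in Col and 2.27, 2.73 and 4.89 in Ler apical cells, and here Col was the higher cross. In basal cells it was 1.66, 3.13 and 3.14 in Col and 4.28, 3.44 and 14.5 in Ler. In the suspensor it was 3.81, 0.09 and 0.82 in Col and 9.45, 4.80 and 24.7 in Ler. Ler was thus the higher cross in basal cell and suspensor, in each case without overlap. In basal cells the margin was narrow, between 3.14 in Col and 3.44 in Ler, and the library at 14.5 carried the Ler mean. In the embryo proper, at 4.38, 3.54 and 6.82 in Col and 5.83, 3.04 and 3.54 in Ler, the crosses overlapped. AT4G00930, a copy elsewhere that is 93.7% identical over 1802 bases, had an FPKM of 42.4 ± 12.9 in apical cells, 10.05 ± 3.06 in basal cells, 12.8 ± 1.88 in the embryo proper and 2.92 ± 1.90 in the suspensor. The 2 shared 6.05% of the stretches of 50 bases of CIP4.

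**Figure D3:**
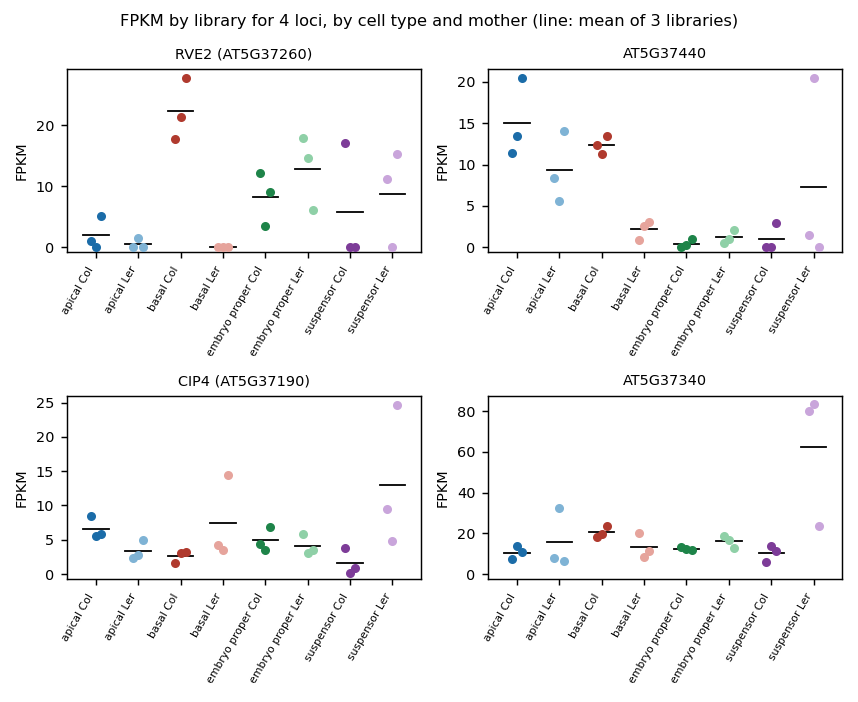
FPKM (vertical axis, linear) of RVE2, AT5G37440, CIP4 and AT5G37340 in the 8 groups of cell type and mother. Points are libraries and lines are means of 3 libraries. RVE2 and AT5G37440 are higher in Col than in Ler basal cells, and CIP4 and AT5G37340 are higher in Ler than in Col suspensor.

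The 31 members that did not pass the filter include 21 that were listed at 0 in every library. Of those, 11 are pseudogenes: AT5G37080, AT5G37090, AT5G37100, AT5G37110, AT5G37120, AT5G37125, AT5G37330, AT5G37381, AT5G37383, AT5G37385 and AT5G37390. Another 9 are protein coding: the F-box gene AT5G37040, the cation/H+ exchanger AT5G37060, the O-methyltransferase AT5G37170, AT5G37200, AT5G37220, AT5G37240, AT5G37430, the defensin-like AT5G37473 and AT5G37478, of the TPX2 family of spindle proteins. The last is AT5G37351. The other 10 were above 0 somewhere. GORK (AT5G37500), an outward potassium channel best known from guard cells, had an FPKM of 7.77 in 1 Ler suspensor library and at most 0.26 in the rest. The highest value was 1.43 for AT5G37050, 0.75 for AT5G37145, 0.23 for the sucrose synthase SUS5 (AT5G37180), 0.24 for AT5G37210, 0.09 for AGL105, 0.07 for AT5G37442 and 0.05 for AT5G37476. No pseudogene exceeded 2.48.

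Seen along the chromosome, the 32 members did not share 1 pattern, and the word cluster describes their position and not their expression. Median r of log2(FPKM + 1) over 24 libraries was 0.0005 for the 31 pairs of neighbours in the filtered list, with a range from -0.40 to 0.91. It was 0.03 for the other 465 pairs. Leaving out AT5G37140 and AT5G37320, both highest in the apical cell, the highest of the 4 cell type means was in the apical cell for 11 of 30 members, in the basal cell for 9, in the suspensor for 10 and in the embryo proper for 0. Over all 18206 genes tested, the highest mean was in these cell types for 24.7%, 24.9%, 32.1% and 18.3%. The 11 include AT5G37030, AT5G37175, AT5G37230, AT5G37270, AT5G37420 and AT5G37450, which passed the filter only with their apical values. They also include the 3 RING/U-box loci, which may share reads. AT5G37460 and AT5G37474, among the 9, passed only with their basal values. These counts are therefore not set against the shares of all genes as a result. The whole stretch took 0.0704 to 0.0832% of summed FPKM in apical cells, 0.0514 to 0.0735% in basal cells, 0.0397 to 0.0477% in the embryo proper and 0.0336 to 0.0667% in the suspensor. In the suspensor the share was 0.0336 to 0.0431% in Col and 0.0555 to 0.0667% in Ler libraries. In basal cells it was 0.0554 to 0.0735% in Col and 0.0514 to 0.0541% in Ler. The crosses overlapped in apical cells and embryo proper. Without AT5G37140, AT5G37320 and AT5G37475 the ranges of apical cells, 0.0395 to 0.0490%, and basal cells, 0.0394 to 0.0580%, overlapped, with the former inside the latter. The embryo proper, at 0.0300 to 0.0375%, stayed below both, and the suspensor spanned 0.0265 to 0.0567%. The loci left out are the 3 with the highest apical means of those printed in every library. AT5G37475 alone made up 20.3% of the stretch's FPKM averaged over the libraries.

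**Figure D4:**
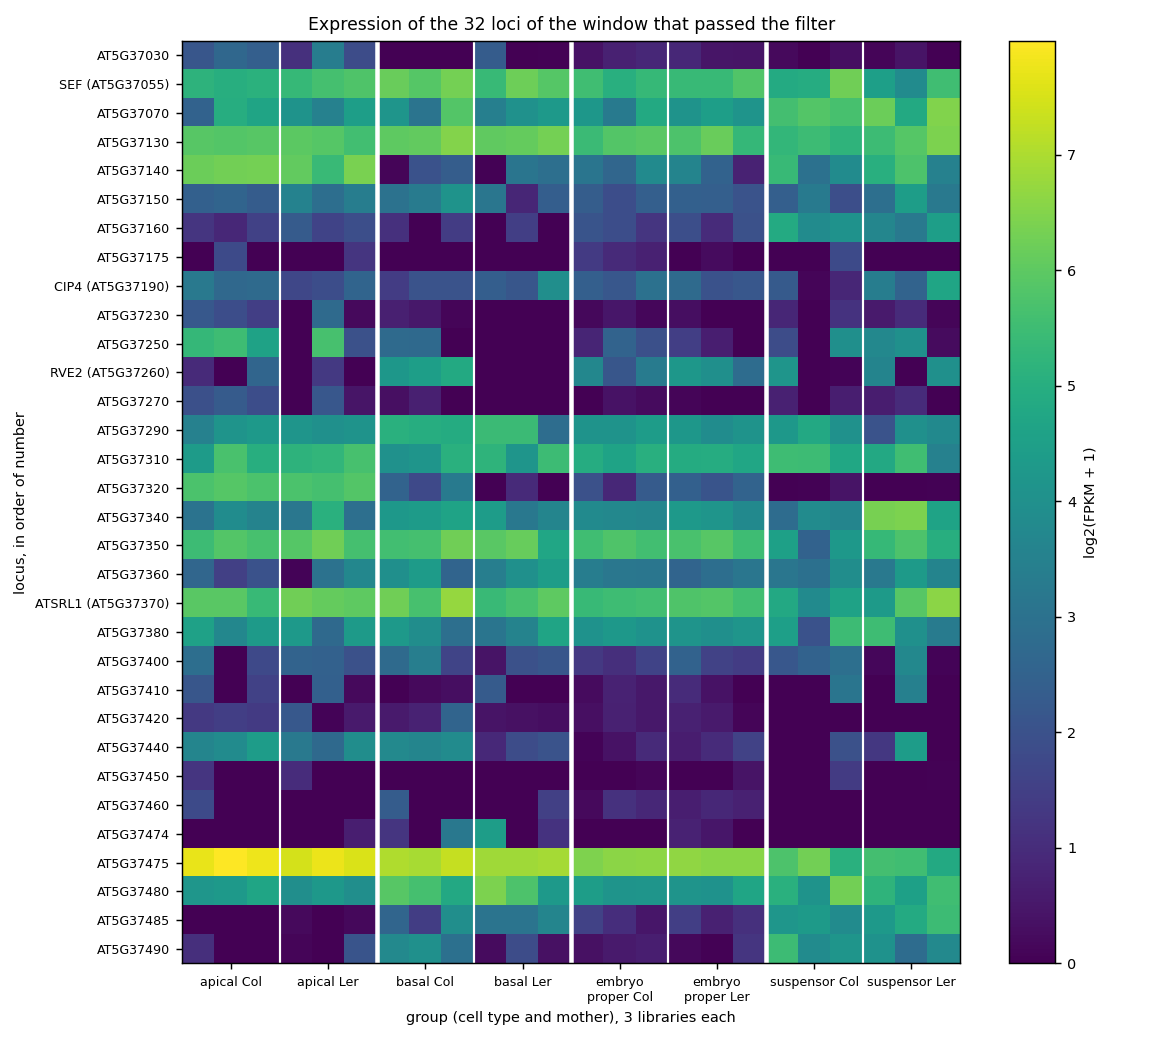
Level of the 32 members that passed the filter, in order of locus number (rows), in 24 libraries (columns, 3 per group), coloured by log2(FPKM + 1). AT5G37475 is the brightest row, AT5G37140 and AT5G37320 are bright in the 6 apical libraries, and neighbouring rows mostly differ.

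The 30 members other than AT5G37140 and AT5G37320 were set beside all genes in limma's moderated test (adjusted p under 0.05 by Benjamini-Hochberg over 18206 genes). These counts are a description, since the same contrasts led to the choice of the stretch. Among the 30, AT5G37270 reached an FPKM of 1 in 4 libraries, all of them apical. AT5G37030, AT5G37175, AT5G37230, AT5G37420 and AT5G37450 also passed the filter only with their apical values. AT5G37474 reached it in 4 libraries, all of them basal, and AT5G37460 passed only with its basal values. The filter itself thus favours these loci in comparisons with the apical or the basal cell. The 3 RING/U-box loci that passed the filter may share reads, yet each of them is counted separately below. For apical against basal cell, 10 members passed, beside 24% of all genes, with 5 higher (beside 11.8%) and 5 lower (beside 12.2%). That count was 4 without the 4 libraries of the other kit wording, beside 19.9% of all genes, and 1 within Ler libraries. For embryo proper against suspensor 7 passed, beside 50.9%, with 2 higher (beside 28.5%) and 5 lower (beside 22.4%). For embryo proper against apical cell 7 passed, beside 21.9%, with 1 higher (beside 10.2%) and 6 lower (beside 11.7%). For suspensor against basal cell 13 passed, beside 44.9%, with 4 higher (beside 18.9%) and 9 lower (beside 26%). For the interaction of lineage and stage 8 passed, beside 35.5%, with 2 higher (beside 19.3%) and 6 lower (beside 16.2%). That last count was 5 without the first Col embryo proper library and also 5 without the second Col suspensor library. The median log2 difference of the 30 members for apical minus basal cell was 0.07, against 0.03 for all genes tested. For embryo proper minus suspensor it was -0.11, against 0.12.

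Between the crosses, the members that passed made up 6.67% of the 30 in basal cells and 10% in the suspensor. In basal cells there were 2, RVE2 and AT5G37490, both higher in Col, beside 7.06% of all genes, or 3.97% called higher. Only 1 call was left without the 4 libraries of the other kit wording, and also 1 at a pseudocount of 0.1. In the suspensor there were 3, CIP4, AT5G37340 and AT5G37350, all lower in Col, beside 4.2% of all genes, or 1.3% called lower, with 1 left without the second Col suspensor library and 0 with library weights. In apical cells none of the 30 passed by limma (0, with 2 at an unadjusted p under 0.05), beside 0.428% of all genes, and 1 passed without the second Ler apical library. In the embryo proper, 0 passed and 0 had an unadjusted p under 0.05, beside 0% of all genes. For the average over the cell types 0 passed, with 3 at an unadjusted p under 0.05, beside 0.791% of all genes.

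Groups whose libraries do not overlap, as pointed out for single members above, are common in these data. Among the same 30 members, apical and basal cells did not overlap for 3, beside 10.2% of all genes tested, and embryo proper and suspensor for 7, beside 31.5%. Embryo proper and apical cells did not overlap for 4, beside 19.4%, and suspensor and basal cells for 3, beside 16.2%. With 3 libraries a cross, the crosses did not overlap for 5 members in apical cells, beside 14.2%, for 8 in basal cells, beside 24%, for 3 in the embryo proper, beside 7.27%, and for 5 in the suspensor, beside 12.2%.

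**Figure D5:**
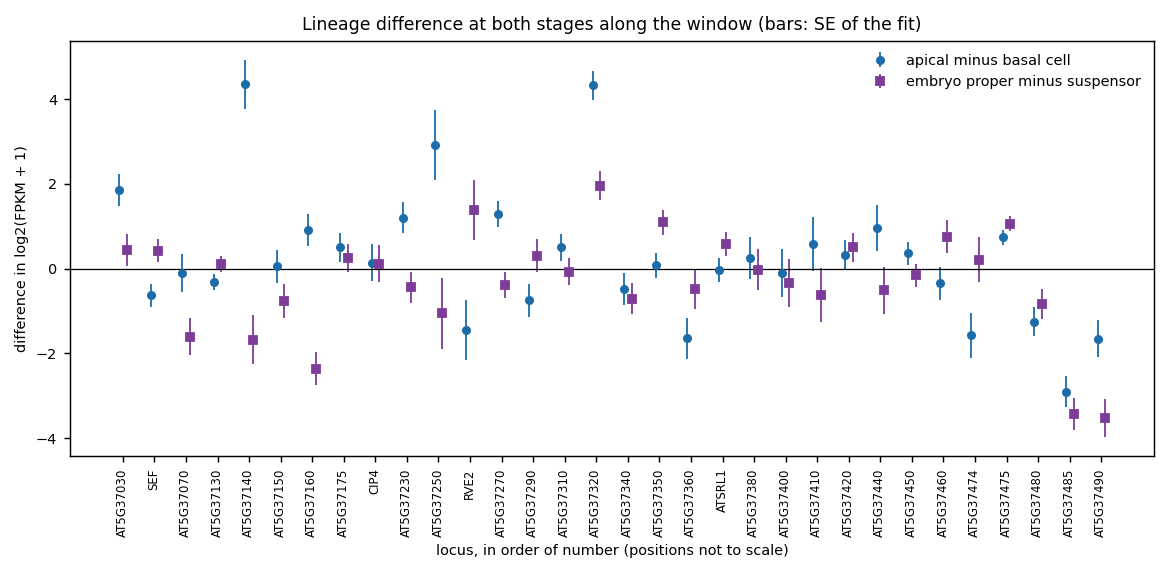
Fitted difference in log2(FPKM + 1) between lineages (vertical axis) for the 32 members in order of locus number (horizontal axis, not to scale), at the first stage (circles, apical minus basal cell) and the later stage (squares, embryo proper minus suspensor). Bars are SEs of the fit. AT5G37140 is at 4.36 and -1.68 and AT5G37320 at 4.33 and 1.96, while AT5G37485 and AT5G37490 at the far end are below 0 at both stages.

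The loci just outside the stretch varied as well. ARF8 (AT5G37020), an auxin response factor directly before it, had an FPKM of 16.1 to 23.1 in the embryo proper, 5.59 to 13.1 in apical cells, 0 to 4.20 in basal cells and 3.39 to 13.4 in the suspensor. EMB1467 (AT5G37510), a mitochondrial NADH dehydrogenase subunit directly after it, had an FPKM of 102, 83.3 and 40.9 in Col and 29.0 to 35.6 in Ler basal cells. AT5G37540, an aspartyl protease, was at 3.97 to 57.3 in the suspensor and at 0 in all basal cells. AT5G37300 (WSD1), which the rule leaves out, was at 0 in all but 1 library, where it had an FPKM of 0.17.

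Genes elsewhere in the genome that belong to the families of the members are not part of the stretch and were tested, though their lists too were drawn up with earlier results of these data known. Among 9 tested helicases related to SEN1 and UPF1, 3 were higher and 1 was lower in apical cells than in basal cells, beside 24% of all genes called. AT1G65810 had an FPKM of 35.4 ± 8.84 in apical cells and 5.88 ± 2.11 in basal cells, a log2 difference of 2.41 (SE 0.44, adjusted p = 3.51e-04 by limma). AT4G05540 had 9.56 ± 5.56 and 0.948 ± 1.05, a difference of 2.44 (SE 0.33, adjusted p = 1.41e-05 by limma). Both thus shared the direction of AT5G37140 at the first stage. At the later stage 4 of the 9 were higher in the embryo proper and 1 in the suspensor, beside 50.9%. AT1G65810 was higher there too, at 8.27 ± 2.36 against 2.90 ± 3.10 (adjusted p = 0.00364 by limma), the opposite side from AT5G37140. AT4G30100 was the latter, at 4.01 ± 0.568 against 19.3 ± 4.57 (adjusted p = 5.74e-06 by limma). LBA1 (AT5G47010), the UPF1 helicase of RNA quality control, had means of 21.4 to 28.0 in the 4 cell types and passed in neither comparison.

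Among 6 other subunits of the SWR1 complex, 4 were higher in the embryo proper (beside 28.5% of all genes) and 0 in the suspensor (beside 22.4%). GAS41 had an FPKM of 72.2 ± 9.95 against 15.7 ± 6.46, a log2 difference of 2.26 (SE 0.27, adjusted p = 3.22e-07 by limma). SWC2 (27.4 ± 2.78 against 10.7 ± 2.05), ARP4 (167 ± 20.1 against 84.2 ± 26.1) and ARP6 (31.5 ± 3.25 against 12.6 ± 8.51) also passed. SEF, the member of the stretch, had 42.4 ± 7.63 and 35.7 ± 22.0 there. For apical against basal cell 1 of the 6 was higher and 2 were lower, beside 24% of all genes called.

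Among 7 tested clock-related MYB genes other than RVE2, 1 was higher in apical than basal cells, beside 24% of all genes called, and 2 were higher in suspensor than embryo proper, beside 50.9%. EPR1 was at 32.9 ± 16.8 against 8.11 ± 5.15 in the first comparison (adjusted p = 8.14e-04 by limma) and at 24.2 ± 11.4 against 63.8 ± 51.4 in the second (adjusted p = 0.0359 by limma). CCA1 was the other one in the second, at 9.35 ± 4.43 against 27.0 ± 18.8 (adjusted p = 0.0313 by limma).

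Of 5 tested Shaker potassium channels, the family of GORK, none passed for apical against basal cell (0 by limma). At the later stage 2 were higher in the embryo proper (beside 28.5% of all genes) and 1 in the suspensor (beside 22.4%). The former include KT1, at 1.22 to 2.67 in the embryo proper and at most 0.15 elsewhere. KT1 thus passed the filter only with its embryo proper values. KAT3 was at 6.76 ± 1.41 against 1.17 ± 1.88 (adjusted p = 1.30e-04 by limma), and KT5 at 9.26 ± 2.02 against 31.6 ± 9.82 (adjusted p = 0.00309 by limma). Of 2 tested sucrose synthases, SUS1 was lower in apical than basal cells, at 3.80 ± 1.49 against 22.2 ± 12.7 (adjusted p = 1.16e-04 by limma). SUS2 was higher there, at 2.41 ± 2.11 against 0 in all basal cell libraries (adjusted p = 4.15e-04 by limma). Over the 29 related genes, 10 passed for apical against basal cell, beside 24% of all genes, or 6 without the first Ler apical library and 5 within Col libraries.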

How the data were processed

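The authors deposited 1 table per library with an FPKM value for each of 32399 loci, written with 2 decimals. TopHat2 2.1.1 and RSEM (version not given in the sources used here) were used with TAIR10, per the submitters' processing notes. The notes give neither the role nor the order of the tools, and whether strand was used is not given in the sources used here. The files hold FPKM only, so no count test was run. Per the labels' protocols, libraries were made with Nextera XT. For 4 libraries the labels allow Nextera XT or NEBNext: basal cell Ler 2 and 3, basal cell Col 3 and suspensor Ler 1.

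Values were taken as log2(FPKM + 1), so differences of low genes are understated. The 18206 genes that reached FPKM 1 in 3 or more libraries were fitted with limma 3.58.1 in R 4.3.3, with 8 group means over 24 libraries and a mean-variance trend. P-values were adjusted by Benjamini-Hochberg over all of them, with a threshold of 0.05. The model was tested on simulated data. The members and all lists were chosen with earlier results of these data known. A contrast between cell types was set down as used in the choice if both AT5G37140 and AT5G37320 passed in it, and the 5 cross contrasts if either passed in any. All 10 contrasts met this, so the members' differences and calls from the fit are given as a description, and nothing is supported by them. By rule, AT5G37140, AT5G37320 and the 10 other filtered members with the largest range of group means are given in every library, and the rest by their range or highest value.

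Names came from RefSeq's TAIR10.1 gene table, which held 62 of the 63 members. Transcripts of TAIR10.1 were compared with BLAST 2.17.0 (blastn), and by shared stretches of 50 bases, on either strand, to find copies that may share reads. Those models may differ from the authors'. No coordinates or sequences are printed, since the files' build is TAIR10. Depth was estimated from low FPKM values and transcript length with an assumed fragment length of 200 bases, searched between 12 and 50 M fragments. It is rough, because RSEM's values need not rest on whole fragments, and the lowest estimates, 13.3 M, lie near the lower end of that search. No 2 libraries held identical values, and the highest correlation between any 2 was 0.98. An exact 0 says only that a locus was listed at 0. Figures were drawn in Python 3.11.15 with matplotlib 3.10.9.

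Alternatives were pseudocounts of 0.1 and 5, no filter or FPKM 5, TPM and quantile scaling, library weights and the kit wording as covariate. Others were fits without the 4 libraries, a replicate block, contrasts within each cross in the full fit, and leaving out each library.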

Additional observations from a re-analysis of the deposited data

Results flagged for a closer look

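CIP4 (AT5G37190) had cross differences of opposite sign in different cell types. Its Col minus Ler difference in log2(FPKM + 1) was 0.84 in apical cells, where all 3 Col libraries were above all 3 Ler libraries. It was -0.999 in basal cells and -2.45 in the suspensor, where all 3 Col libraries were below all 3 Ler libraries. Of these differences only that in the suspensor passed by limma, and in basal cells the crosses were apart by a narrow margin. The difference between the cell types was not tested. Groups of 3 libraries were not screened for outlying samples.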

How the results depend on the processing

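Each count below is of members or related genes with an adjusted p under 0.05 by limma. Counts of members for apical against basal cell (10) were 6 at a filter of FPKM 5, 4 without the 4 libraries of the other kit wording, 6 within Col and 1 within Ler libraries. For embryo proper against apical cell (7) they were 4 at FPKM 5 and 2 within Ler. For suspensor against basal cell (13) they were 7 without the 4 libraries and 7 within Ler. For the interaction (8) they were 5 at FPKM 5, 5 without the 4 libraries, 4 within Col, 3 within Ler and 5 to 10 when each library was left out. Counts within a cross come from the fit to all 24 libraries, but compare group means of that cross only, of 3 libraries each. For the crosses in basal cells (2) they were 1 at a pseudocount of 0.1, 4 with library weights and 1 without the 4 libraries. In the suspensor (3) they were 0 with weights and 1 to 4 when each library was left out, and in apical cells (0) 0 to 1. Related genes numbered 5 within Col and 6 to 10 with each library left out for apical against basal cell (10), 13 with weights and 5 within Col and 5 within Ler for embryo proper against apical cell (8), 5 within Col for suspensor against basal cell (10), and 7 within Col and 7 within Ler for the interaction (11). The causes were not tested. Of 1391 values for 39 differences of named members, 72 moved beyond the spread and 1 reversed: AT5G37440 for suspensor minus basal cell, -1.38, was 0.31 within Ler libraries. On the TPM scale, the median of all genes for apical against basal cell moved from 0.03 to 0.14, and the share of calls that were higher from 49.2 to 59.1%. That share moved from 69.2 to 42.1% for the crosses in the suspensor and from 50.7 to 40.4% for their average on the TPM scale, and from 23.1 to 34.8% in apical cells under quantile normalization.

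Replicate numbers did not pair the libraries: in 0 of 28 pairs of groups was every correlation of same-numbered deviations over 0.1 (range -0.18 to 0.30). With the replicate number as a block, counts of members were 10 for apical against basal cell, 6 for embryo proper against suspensor, 7 for embryo proper against apical cell, 11 for suspensor against basal cell, 8 for the interaction, 2 for the crosses in basal cells and 3 in the suspensor. At the estimated depth, FPKM values well under 1 rest on few fragments, and so do values near 1 in short transcripts.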
